A study of Mus musculus with 4 samples.

Results

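The genes described here are the non-Hox homeobox and Pax developmental regulators: the Dlx, Msx, Barx, Emx, En, Nkx, Gsx, Cdx, Lhx, Isl, Pax, Pitx, sine oculis (Six4 and its relatives), Irx, Meis and Pbx families. A probe set, a group of short probes that together measure 1 transcript, was a member when its only annotated gene symbol was 1 of these 16 prefixes followed by a number. The rule used names and no measured value, and it took 116 of the 45101 probe sets on the array, which stand for 69 genes. No member was left out for a low signal.

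Homeobox genes encode transcription factors that bind DNA through a homeodomain, and Pax factors bind it through a paired domain, in several members together with a homeodomain. They assign position and cell identity in the embryo, for example in the neural tube, the limbs, the eye, the heart and the gut. In pluripotent stem cells most of them are silent, and many lie in CpG-rich DNA covered by histone H3 methylated at lysine 27, the mark set by Polycomb repressive complex 2 (PRC2). Suz12 is a core subunit of that complex.

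The study measured total RNA of mouse embryonic stem cells on Affymetrix arrays, 2 labelled WT and 2 labelled Suz12KO. Per the labels, RNA was taken separately from 3 clones of each genotype and mixed in equal parts into 1 sample. The labels do not say if the 2 arrays of a genotype carry separate RNA, so each p-value measures spread between arrays, which may be technical. Neither the allele nor the culture conditions are stated in the labels. The question is which of these regulators differ in level when Suz12 is missing. Suz12 itself read 1097 and 1094 (WT) against 217 and 369 (Suz12KO) on 1 probe set, and its log2 fold change was -1.89 (SE 0.27, limma adjusted p = 0.00702). All 10 embryonic stem cell markers examined, Nanog and Pou5f1 among them, lay above background on all 4 arrays. Background was judged on each array by the highest of 27 probe sets for bacterial spike RNAs that read low throughout. This limit was 141 and 191.5 (WT) against 195 and 174 (Suz12KO), and readings at or under it cannot be told from no transcript. In pooled RNA, fewer cells that express a gene and less RNA in each cell cannot be told apart.

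Many of these regulators read within background on some or all arrays. Of the 116 member probe sets, 34 (29.3%) were above background on both WT arrays and 30 (25.9%) on both Suz12KO arrays, while over all 45037 non-control probe sets the shares were 43.8% and 44.0%. With the 90th percentile of the spikes as the limit, 60 members (51.7%) were above it on both WT arrays and 46 (39.7%) on both Suz12KO arrays, against 59.4% and 53.2% of all probe sets. That limit was 95.4 and 62.8 (WT) against 122 and 125 (Suz12KO), so it was higher on the Suz12KO arrays. Under the first limit, on all 4 arrays 23 members were above it, on none of them 43, and on some of them 50. By gene, 19 of 69 had a probe set above background on every array, 31 on some arrays, and 19 had none on any. The median member signal was 144 and 112 (WT) against 141 and 124 (Suz12KO), which is under the array's own spike limit on all but the first WT array. A single member probe set, of Pbx2, read over 1000 on every array, against 12.3% of all probe sets.

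**Figure D1:**
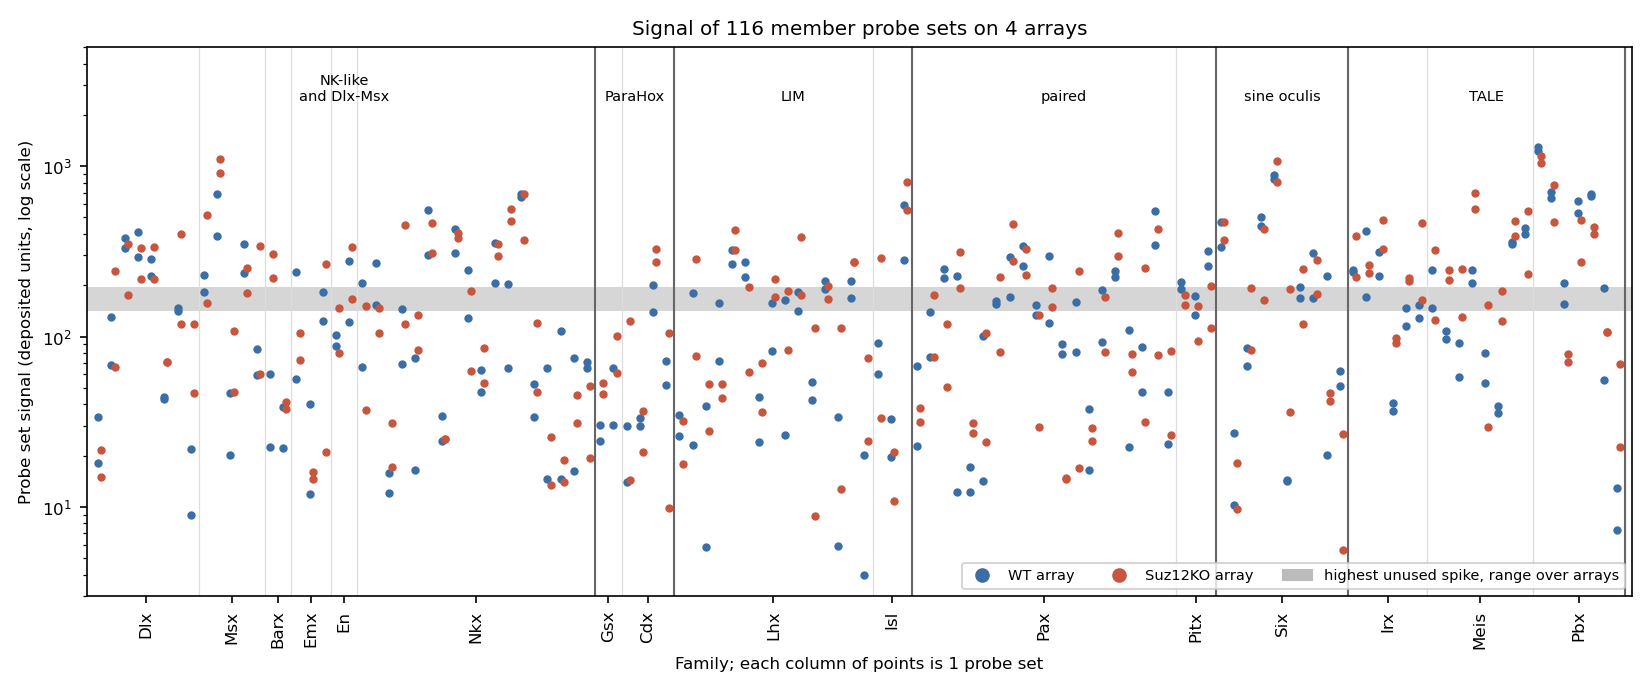
Signal of each of the 116 member probe sets on the 2 WT and the 2 Suz12KO arrays, on a log axis, grouped by family and class; the grey band spans the highest unused spike of the 4 arrays, 141 to 195. Most points of both genotypes lie in or under the band, and the points over 1000 belong to Pbx2, Msx1 and Six4.

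The comparison of Suz12KO with WT gave 1 call among the members. Meis2 rose on 1 of its 4 probe sets, 0 member probe sets fell, and 115 did not pass limma at an adjusted p under 0.05. Over all non-control probe sets 1.25% were called higher and 1.79% lower (565 and 807; with arrays centred on their median 252 and 1226). At an unadjusted p under 0.05 there were 7 members (6.03%), 5 higher and 2 lower, against 14.2% of all probe sets. Both Suz12KO arrays lay above both WT arrays for 26 members (22.4%; 25.7% of all probe sets) and below them for 14 (12.1%; 18.7% of all). The members' median log2 fold change was 0.11 and that of all probe sets 0.07; under quantile normalization both were 0.01, and with each array centred on its median they were -0.06 and -0.10, so this median has no direction of its own. Fold changes are on the log2(signal + 16) scale, which understates the change of dim transcripts.

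**Figure D2:**
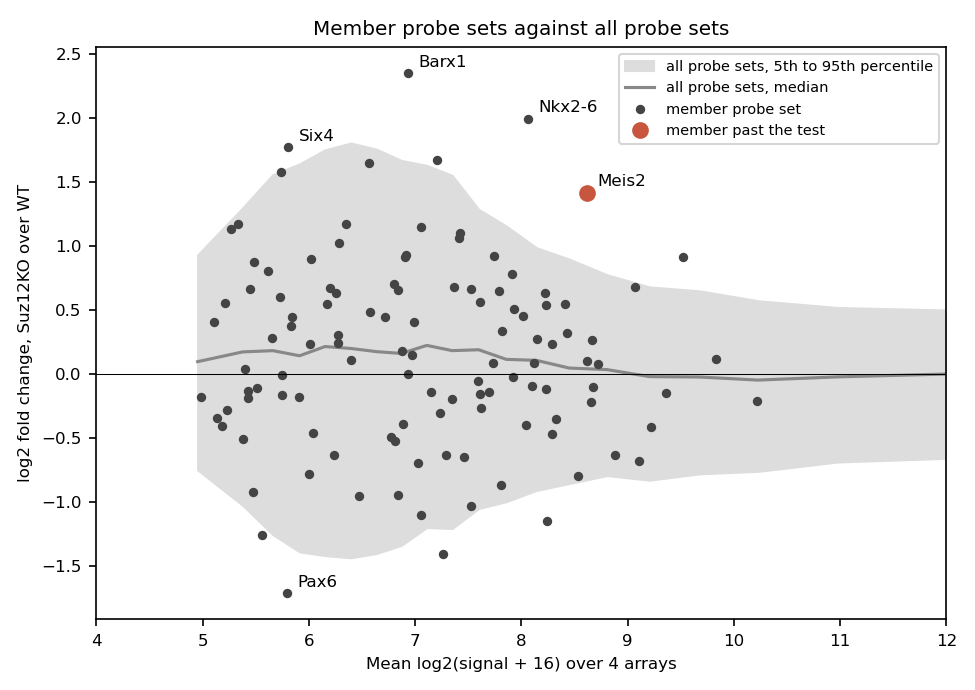
Log2 fold change of Suz12KO over WT against the mean log2(signal + 16) over 4 arrays, with member probe sets as points and all non-control probe sets as a band from the 5th to the 95th percentile in 20 bins of level. Of the members, 105 lie inside the band, 7 above it and 4 below it, and Meis2, the 1 past the test, lies above it.

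The TALE class, named for extra residues in the homeodomain, holds the Meis and Pbx factors, which bind DNA as partners of Hox and other homeodomain proteins, and the Iroquois factors (Irx), which pattern neural and cardiac tissue. It was the class with the largest share of probe sets above background, 11 of 21 in WT (52.4%) and 12 of 21 in Suz12KO (57.1%). Both Suz12KO arrays lay above both WT arrays for 10 of its 21 probe sets (47.6%; 25.7% of all probe sets) and below for 4 (19.0%; 18.7% of all). The median log2 fold change was 0.27 with 1 call, 0.14 under quantile normalization and 0.10 after centring, which left 0 calls. Whether this class differs from the others was not tested.

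Meis2, which acts in limb, heart, palate and forebrain development, read 207 and 245 (WT) against 700.0 and 562.5 (Suz12KO) on probe set 1417129_a_at. The lower Suz12KO array was well above the higher WT array. The means were 226 ± 27.3 and 631 ± 97.2 (SD, n = 2), and the log2 fold change was 1.42 (SE 0.29, limma adjusted p = 0.0368). Leaving out any 1 of the 4 arrays ended the call (log2 fold change 1.26 to 1.57), though such fits also called fewer of all probe sets. A fit with arrays centred on their median ended it too (1.25, limma adjusted p = 0.0564). Without a mean-variance trend the limma adjusted p was 0.303, but that fit called 0% of all probe sets. The other Meis2 probe sets did not pass. Probe set 1457632_s_at read 351 and 358 (WT) against 389 and 474 (Suz12KO), also without overlap, but with a log2 fold change of 0.27 (SE 0.27). Probe set 1447861_x_at read 39.3 and 35.8 (WT) against 123 and 185.5 (Suz12KO), which is above background on 1 array, and 1440091_at lay under background on all 4 (29.3 to 153). The probe sets of this gene therefore gave differences of unlike size.

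Meis1, a cofactor in blood, limb and eye development, had 1 probe set above background on both Suz12KO arrays and on neither WT array. This probe set, 1450992_a_at, read 96.7 and 107 (WT) against 247 and 215 (Suz12KO). Against the WT spike limits Suz12KO was at least 1.40-fold higher, and the difference did not pass (log2 fold change 1.06, SE 0.57, limma adjusted p = 0.460). Here "at least" compares the brighter genotype's mean log2 signal with the spike limits on the dimmer genotype's arrays. Probe set 1459423_at had the same order, with 91.7 and 57.9 (WT) against 249 and 131 (Suz12KO). Probe set 1443260_at overlapped between genotypes (246 and 146 against 323 and 125). Meis3, a related factor, overlapped too, with 402 and 435 (WT) against 546 and 232 (Suz12KO).

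Pbx2, a broadly expressed partner of Meis and Hox proteins, read 1297 and 1229 (WT) against 1037.5 and 1139 (Suz12KO) on probe set 1418893_at. All 4 arrays were far above background, and the log2 fold change was -0.21 (SE 0.13, limma adjusted p = 0.530). Its probe set 1418894_s_at overlapped between genotypes (646 and 706 against 472 and 780). The third, 1449261_at, read 155 and 207 in WT, just over the limits of those arrays, and 71.1 and 79.3 in Suz12KO. That difference did not pass (adjusted p = 0.522), and since the WT readings hardly exceed background no fold is given.

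Pbx3 is named here after its values were seen, as a member with both probe sets above background on all arrays and lower in Suz12KO without overlap. Probe set 1447640_s_at read 672 and 690.4 (WT) against 438.5 and 399.6 (Suz12KO), a log2 fold change of -0.68 (SE 0.21, unadjusted p = 0.0109, limma adjusted p = 0.166). Probe set 1421193_a_at read 620.5 and 529 (WT) against 483 and 273 (Suz12KO) (-0.63, SE 0.31, adjusted p = 0.408). Neither passed. With 1 array left out the second ran from -1.03 to -0.24, and the first from -0.75 to -0.62. Pbx4 was at or under background on 7 of its 8 readings.

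Among the Iroquois genes, each with 1 probe set, none passed the test. Irx3, which patterns the neural tube, read 225 and 315 (WT) against 324 and 482 (Suz12KO) (log2 fold change 0.54, SE 0.35, limma adjusted p = 0.553). Its groups were apart by less than the gap between arrays of a genotype. Irx4, Irx5 and Irx6 also had both Suz12KO arrays above both WT arrays. Irx4 stayed under background throughout, at 36.6 and 40.6 (WT) against 91.6 and 97.9 (Suz12KO). Irx1 and Irx2 overlapped between genotypes.

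The NK-like and Dlx-Msx class had 38 probe sets, of which 10 were above background on both WT arrays and 9 on both Suz12KO arrays. None was called. At an unadjusted p under 0.05 there were 4 (10.5%, against 14.2% of all probe sets). All were higher in Suz12KO, and that of Dlx6 was within background on all arrays. The class median was 0.14, and -0.03 after centring, and its log2 fold changes ran from -0.92 (Nkx6-1, within background on all arrays) to 2.35 (Barx1).

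Barx1, a regulator of stomach and tooth development, read 22.5 and 60.2 (WT) against 221 and 306 (Suz12KO). Both WT readings were within background and both Suz12KO readings above it. Against the WT spike limits the Suz12KO readings were at least 1.58-fold higher, and the difference did not pass (limma unadjusted p = 0.0120, adjusted p = 0.174). Msx1, a factor of limb bud, tooth and neural crest, read 690.3 and 391.5 (WT) against 1097 and 905 (Suz12KO) on 1448601_s_at (log2 fold change 0.92, SE 0.26, limma adjusted p = 0.139). The WT arrays themselves differed widely. Without WT replicate 1 the Msx1 value was 1.31 and passed (adjusted p = 0.0271), and without WT replicate 2 it was 0.52. Its other probe set, 1417127_at, overlapped, with 183 and 230.3 (WT) against 516.5 and 157 (Suz12KO).

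The 2 probe sets of Nkx2-6, a factor of pharyngeal pouches and early heart, pointed in opposite directions. Probe set 1443817_x_at read 203 and 65.7 (WT) against 560.1 and 478 (Suz12KO) (log2 fold change 2.0, SE 0.52, limma adjusted p = 0.0989). It passed without WT replicate 1 (2.71, adjusted p = 0.0305). Probe set 1452018_at read 686 and 660.1 (WT) against 367 and 685 (Suz12KO) (-0.41, adjusted p = 0.586), with overlap. The x in the first name marks a probe set that can also detect other transcripts. The gene has no settled direction here.

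Dlx3, which acts in placenta and skin, had a log2 fold change of -0.47 on 1422037_at (WT 377 and 329, Suz12KO 175.5 and 351) and of -0.35 on 1450475_at (413 and 291 against 332 and 216). Both overlapped between genotypes, and with 1 array left out the first ran from -0.94 to 0.00 and the second from -0.64 to -0.06. Dlx6, of jaw and limb, had an unadjusted p of 0.0454, but all of its readings (WT 8.98 and 22.0, Suz12KO 46.7 and 119) lay within background. En2, of midbrain and cerebellum, and Emx2, of cortex and urogenital tract, were above background on 1 array of each genotype, and the genotypes overlapped.

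The ParaHox class holds the caudal factors Cdx1, Cdx2 and Cdx4, of trophoblast, gut and posterior axis, and the neural factors Gsx1 and Gsx2. Of its 6 probe sets 5 were under background on every array, and the log2 fold changes ran from -0.46 to 0.81, both ends within background on all arrays. Their median was 0.61, and 0.45 after centring. The exception was Cdx2, whose probe set 1422075_at read 201 and 140 (WT) against 275 and 327 (Suz12KO). Both Suz12KO arrays were above both WT arrays, and the difference did not pass (log2 fold change 0.78, SE 0.44, limma adjusted p = 0.487). The second WT reading lay within background. The other Cdx2 probe set lay at 21.0 to 36.5. Gsx2 read 65.4 and 30.1 (WT) against 61.0 and 101 (Suz12KO), within background.

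The LIM class, Lhx and Isl, combines a homeodomain with zinc-binding LIM domains and specifies motor neurons, pituitary and limb. None of its 18 probe sets was called or had an unadjusted p under 0.05, and their log2 fold changes ran from -1.03 (Lhx4) to 1.17 (Lhx9, within background on all arrays). Their median was 0.47, and 0.31 after centring. Isl2, a motor neuron factor, read 592 and 281 (WT) against 802 and 549.7 (Suz12KO), above background on every array but with overlap (log2 fold change 0.68, SE 0.35, limma adjusted p = 0.445). With 1 array left out it ran from 0.16 to 1.20, the ends set by the 2 WT arrays. Lhx3, of pituitary and motor neurons, read 322 and 266 (WT) against 424 and 319.9 (Suz12KO) on 1425041_at (0.32, adjusted p = 0.728), and its probe set 1421753_a_at was above background on 1 WT array alone. Isl1, of heart progenitors and motor neurons, was above background on 1 array, Suz12KO replicate 1, at 289. The other Suz12KO array read 33.3 on that probe set, and the WT arrays read 60.2 and 91.2.

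The paired class, Pax and Pitx, had 23 probe sets with a median log2 fold change of -0.14 (-0.31 after centring and under quantile normalization). None was called. Pax6, a regulator of eye, forebrain and pancreas, had 5 probe sets, all with a log2 fold change below 0 and none past the test. On 1419271_at, the Pax6 probe set above background on every array, it read 259 and 342 (WT) against 229 and 325.5 (Suz12KO), a log2 fold change of -0.12 (between -0.35 and 0.12 with 1 array left out). The genotypes overlapped. The Pax6 probe set 1452526_a_at had the lowest log2 fold change of all members, -1.71 (unadjusted p = 0.0229, limma adjusted p = 0.241), but its readings, 14.5 and 14.8 in Suz12KO and 79.1 or more in WT, were all within background.

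Pax3, of dorsal neural tube, neural crest and muscle precursors, differed in direction among its 3 probe sets. Probe set 1420389_at read 249.5 and 221 in WT, above background, and 118.5 and 50.6 in Suz12KO, within it. Against the Suz12KO spike limits the WT readings were at least 1.28-fold higher, and the difference did not pass (limma adjusted p = 0.391). Probe set 1430335_a_at read 12.3 and 226 (WT) against 193 and 315 (Suz12KO), so the WT arrays disagreed. The third Pax3 probe set was within background throughout. Pax9, of tooth, thymus and skeleton, read 346 and 545 (WT) against 78.0 and 426 (Suz12KO) on 1421247_at, with a log2 fold change of -1.14 (adjusted p = 0.497), or -0.03 without Suz12KO replicate 1 and -2.26 without Suz12KO replicate 2. Its Suz12KO arrays lay far apart, the lower one within background, and overlapped the WT arrays. Its other 2 probe sets were above background on 1 array at most. Pitx3, of lens and midbrain dopamine neurons, read 317 and 258 (WT) against 112 and 198 (Suz12KO), without overlap (-0.87, SE 0.49, adjusted p = 0.489). The first Suz12KO reading of Pitx3 lay within background.

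The sine oculis class, which works in eye, ear, kidney and muscle, had 10 probe sets and 0 calls, with 0 at an unadjusted p under 0.05. Its log2 fold changes ran from -1.26 (Six6) to 1.77 (Six4), both within background on all arrays. Their median was -0.04, and -0.21 after centring. Six4 read 838.5 and 885 (WT) against 809.8 and 1078 (Suz12KO) on 1425767_a_at, far above background. The genotypes overlapped, and the log2 fold change was 0.12 (SE 0.18), or -0.05 after centring. On 1427701_a_at it read 14.1 and 14.3 (WT) against 189 and 36.1 (Suz12KO), all within background, and on the other 2 the genotypes overlapped.

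**Figure D3:**
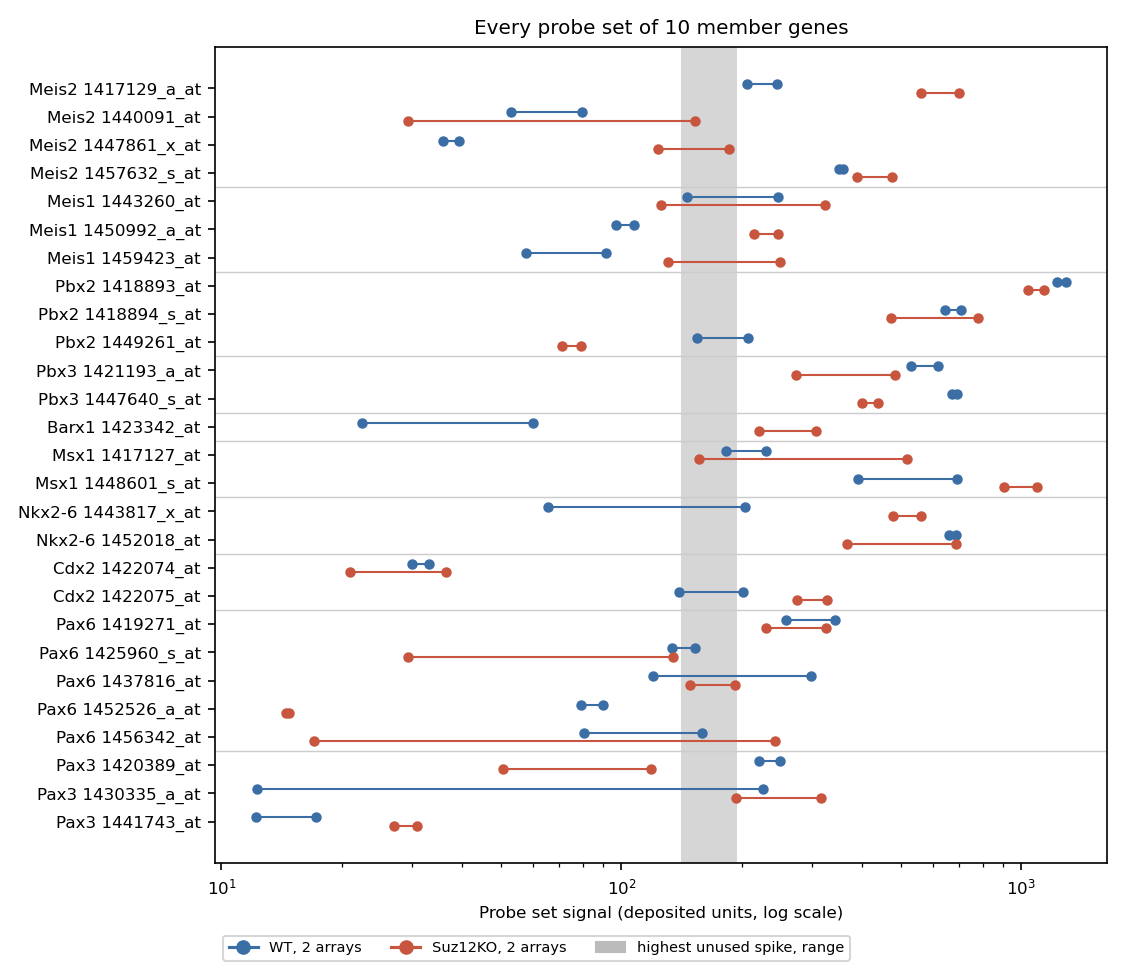
Signal on the 2 WT and the 2 Suz12KO arrays, joined by a line for each genotype, for every probe set of 10 member genes, on a log axis; the grey band spans the highest unused spike of the 4 arrays. The Meis2 probe set 1417129_a_at has both genotypes right of the band and apart, while for Nkx2-6 and Pax3 the probe sets of 1 gene differ in the order of the genotypes.

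Of the 31 member genes with several probe sets, 18 had log2 fold changes of both signs, with probe sets within background included. The share among all genes on the array was not counted, so this does not set the members apart. By position, 10 groups of member genes lay within 500 kb of each other in the RefSeq annotation, 22 genes in all. In 2 of these groups, Dlx5 with Dlx6 and Irx5 with Irx6, both of the 2 probe sets were higher in Suz12KO, none of them past the test. Over all 45037 non-control probe sets, 24968 had a log2 fold change above 0. Dlx6 lay within background on all arrays, Dlx5 overlapped between genotypes, and Irx6 was above background on 1 array of each genotype. The other 8 groups held both signs. In the group of Nkx2-1, Nkx2-9 and Pax9 the log2 fold changes ran from -1.14 (Pax9) to 1.10 (Nkx2-1, above background on 1 array).

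**Figure D4:**
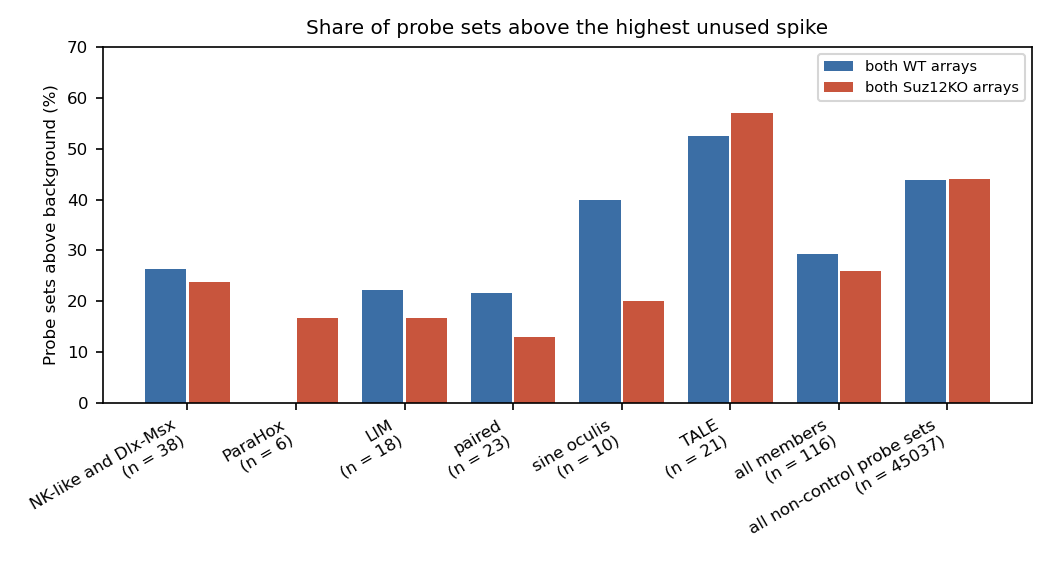
Percent of probe sets above the highest unused spike of their array on both WT arrays and on both Suz12KO arrays, by class, over all members and over all non-control probe sets, with the number of probe sets under each name. The TALE class reaches 52.4% and 57.1%, and the members as a whole 29.3% and 25.9%, against 43.8% and 44.0% of all probe sets.

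The promoters of these genes were rich in CG dinucleotides, a feature of Polycomb targets that the choice by name did not use. RefSeq promoter windows matched 52 of the 69 genes, and the 250 bases before the first listed start were read. CG (the same letters on both strands) occurred at a median of 15.5 times in the members' windows and 10 times in those of 17491 protein-coding genes, and 43 members (82.7%) held 10 or more, against 50.4% of those genes. The windows of 3 genes are shown, with each CG in capitals, of GRCm38.p6 and in the 5′ to 3′ direction of the gene: Meis2, the gene with the call, Barx1, above background in Suz12KO alone, and Pbx2, the gene with a probe set over 1000 on every array.
Meis2 (chr2:116064620-116064869, minus strand): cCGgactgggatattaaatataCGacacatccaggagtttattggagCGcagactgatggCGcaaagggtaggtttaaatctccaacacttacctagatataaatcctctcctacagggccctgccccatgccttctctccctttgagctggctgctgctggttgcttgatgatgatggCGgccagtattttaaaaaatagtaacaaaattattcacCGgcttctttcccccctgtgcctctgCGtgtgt
Barx1 (chr13:48662786-48663035, plus strand): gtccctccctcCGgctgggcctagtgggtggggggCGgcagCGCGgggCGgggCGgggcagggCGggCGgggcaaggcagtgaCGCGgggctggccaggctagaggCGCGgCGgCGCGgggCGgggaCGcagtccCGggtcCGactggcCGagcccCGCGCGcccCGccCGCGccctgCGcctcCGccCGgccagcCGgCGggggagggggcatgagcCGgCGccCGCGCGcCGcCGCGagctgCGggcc
Pbx2 (chr17:34592009-34592258, plus strand): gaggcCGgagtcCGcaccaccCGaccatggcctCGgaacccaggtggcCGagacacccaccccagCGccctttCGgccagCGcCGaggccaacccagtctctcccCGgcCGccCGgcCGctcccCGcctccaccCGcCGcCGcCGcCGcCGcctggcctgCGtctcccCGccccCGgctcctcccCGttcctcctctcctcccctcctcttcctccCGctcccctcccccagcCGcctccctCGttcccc
The Meis2 window held 7, the Barx1 window 40, the most of any member, and the Pbx2 window 27. The gene with the call thus had fewer than the members' median, and no relation of CG count to the differences was tested.

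Homeobox genes outside these families were set beside them from a list of 58, of which 51 were on the array with 85 probe sets. Of these, 2 probe sets rose, those of Otx2 (WT 324 and 226, Suz12KO 948 and 1032) and Hesx1, both factors of epiblast and anterior brain, and 0 fell. The other 83 did not pass. Over all probe sets 1.25% were called higher and 1.79% lower. In WT 27.1% and in Suz12KO 28.2% of the 85 were above background on both arrays, against 43.8% and 44.0% of all probe sets. An unadjusted p under 0.05 was reached by 8.24%, against 14.2% of all probe sets.

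Markers of other cell types moved between the genotypes too. The signal summed over 15 fibroblast markers, 1 probe set a gene, was 48368 and 49130 (WT) against 12341 and 12335 (Suz12KO), most of it from the smooth muscle actin Acta2. Of these 15, 6 fell and 0 rose, and Dcn, Lum, Pdgfrb and Postn were under background on all arrays. The sum over 9 neural markers, most of it from Stmn2, went from 17612 and 17994 to 8433 and 9121. Of these, 3 were lower (Stmn2, Nefl and Nes) and 0 higher, and Dcx and Neurog2 were under background on all arrays. The sum over the embryonic stem cell markers went from 66771 and 66305 to 121673 and 124629, with 9 of 10 higher. Of 8 trophoblast markers, each on its probe set of highest mean signal, the 2 keratins Krt8 and Krt18 were lower and 0 higher. The sum, most of it from these keratins, went from 33550 and 32370 to 12658 and 12526, with Elf5 under background. The median log2 fold change of the 8 was -0.04, and of all 15 probe sets of the list 7 were above 0 and 8 below. Esx1 read 239 and 78.8 (WT) against 834 and 520 (Suz12KO), the second WT reading within background. That difference did not pass (2.12, limma adjusted p = 0.0697). A dimmer Tfap2c probe set, 1418147_at, was called higher, with 234 and 214 (WT) against 909 and 900 (Suz12KO) (log2 fold change 1.94, limma adjusted p = 0.00338). Of 9 primitive endoderm markers 1, Lama1, was higher and 0 lower (sums 4122.5 and 4464 against 5642 and 5105), with Cubn and Foxa2 under background. Most of the rise in the sum came from Lama1, at 238 and 247 (WT) against 1417 and 1134 (Suz12KO). Lamb1, the brightest of them, read 2017 and 2268.5 (WT) against 1532.5 and 1904 (Suz12KO), which did not pass (-0.32, limma adjusted p = 0.311). Of the list's 21 probe sets, 10 had a log2 fold change above 0 and 11 below. Of 6 mesoderm markers 1, Bmp4, was lower and 0 higher (sums 3067 and 3107 against 2686 and 2613). The lower sum came from Bmp4, at 1437 and 1578.5 (WT) against 305 and 520 (Suz12KO). The other mesoderm markers had log2 fold changes above 0, none past the test, and the median of the list was 0.25. The part of these shifts in the differences of Meis2, Pbx3, Pax3 and the other members was not tested.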

How the data were processed

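The deposited intensity is 1 probe set signal for each array, on a linear scale; the labels do not name the software behind it. The mean without the lowest and highest 2% was 500.003 on every array, so the authors' values had been scaled to 1 trimmed mean, and no further normalization was applied. Such scaling hides any shift common to most genes, and precision is limited by having 2 arrays a genotype. Arrays were grouped by sample title. Symbols came from the platform annotation: 34945 non-control probe sets had 1 symbol, 932 several and 9160 none here.

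All 45037 non-control probe sets were fitted as log2(signal + 16) with limma 3.58.1 in R 4.3.3 (lmFit and eBayes with trend; 6.47 prior degrees of freedom). Tests were two-sided, p-values were adjusted by Benjamini-Hochberg over all of them, and a call needs an adjusted value under 0.05. No filter was used. Background spikes were Bacillus genes that stayed under the 75th percentile of every array. Named were all called members, genes with a probe set above background on both arrays of 1 genotype and neither of the other, the highest mean signal of each family, the other probe sets of these, and Cdx2, Pax6 and Isl1. Class medians and ranges include probe sets within background. Signals of different probe sets do not rank transcripts. Members, lists and tests were chosen with earlier results of these data known. Figures used matplotlib 3.10.9 in Python 3.11.15.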

Additional observations from a re-analysis of the deposited data

How the results depend on the processing

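The count of members called higher, 1 as reported, was 0 after centring each array and at gene level with the probe set of highest mean level and the filter. It was 0 without suffixed (s, x, a) probe sets, which removes the called one of Meis2. It was also 0 without a mean-variance trend, a fit that called 0% of all probe sets. It was 2 without probe sets under the 30th percentile (Meis2 and Nkx2-6), 3 with the replicate block (Meis2, Msx1 and Nkx2-6) and 0 to 2 when 1 array was left out. Both other pseudocounts, quantile normalization and robust estimation gave 1. The count called lower was 0 under every alternative run. The replicate numbers are not shown to pair the arrays: same-numbered arrays deviated from their genotype means with a correlation of 0.00381 over probe sets. The members' median log2 fold change was 0.01 under quantile normalization, -0.06 after centring, 0.08 without suffixed probe sets and 0.04 to 0.19 without 1 array. Centring moved the median of all probe sets from 0.07 to -0.10 and the share of calls that were higher from 41.2% to 17.1%. With the 90th percentile of the spikes as background, 60 members were above it on both WT arrays and 46 on both Suz12KO arrays. The shares of all probe sets were 59.4% and 53.2%, and this limit was higher on the Suz12KO arrays.

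Of the values given for single probe sets, 311 kept their direction and call under an alternative, 6 lost the call (all of Meis2), 5 gained one (Msx1 and Nkx2-6) and 9 changed sign. Six4 1425767_a_at was -0.05 after centring. Without 1 array the values ran from -0.36 to 1.27 for Msx1 1417127_at, -0.85 to 0.02 for Nkx2-6 1452018_at, -0.35 to 0.12 for Pax6 1419271_at, -0.09 to 0.32 for Six4 1425767_a_at, -0.44 to 0.39 for Six4 1456862_at and -0.50 to 0.20 for Pbx2 1418894_s_at. Of the 116 probe sets 23 were above background on all arrays, and signal near background limits the values of the rest.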

Other observations

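Antisense or opposite-strand transcripts named after a member (Dlx1as, Dlx4os, Dlx6os1, Dlx6os2, Emx2os, Lhx1os, Pax6os1 and Six3os1) had 8 probe sets, which were picked after the data had been seen. None was called, and 0 were above background on both arrays of a genotype. Emx2os had the highest reading, 410 on Suz12KO replicate 1, with 120 on the other Suz12KO array and 152 and 66.5 in WT.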
